A study of Drosophila melanogaster with 6 samples.

Results

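A set of 10 genes of insect blood cells and basement membranes was followed in neurons sorted from the fly brain. The genes were PPO1, PPO2, PPO3, Hml, NimC1, Sr-CI, Pxn, Col4a1, vkg and SPARC, and they are 10 of the 17117 rows of the authors' deposited table, matched by gene symbol. They had been chosen by the mean log2 CPM and the log2 fold change of PPO1 and PPO2, which were abundant and uneven between the genotypes, so the fold changes of the members here are a description and support nothing further. The study sequenced poly(A) RNA from γ5β′2a, β′2mp and β′2mp_bilateral mushroom body output neurons of adult Drosophila melanogaster, isolated by fluorescence-activated sorting. All flies were mated females of 3 to 4 days, dissected at ZT12 to ZT13.5 (zeitgeber time, counted in hours from lights-on), and all carried UAS-CD8::GFP with the split-GAL4 parts R14C08-p65.AD and R15B01-GAL4.DBD. In the bantam sponge genotype (3 libraries) this driver also expressed UAS-bantam_sponge, a transcript meant to sequester the microRNA bantam. In the scramble sponge genotype (3 libraries) it expressed UAS-scramble_sponge. The question asked of these genes is how much blood-cell RNA the sorted neurons carried.

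Fly blood cells, the hemocytes, are of a few kinds. Plasmatocytes engulf debris and microbes, crystal cells store prophenoloxidases, and lamellocytes, which appear mainly after wasp attack, wrap foreign bodies. Prophenoloxidases are cleaved to active enzymes that make melanin at wounds. Hemocytes and the fat body also secrete collagen IV, SPARC and peroxidasin, which are laid down in the basement membranes that sheath organs, the brain included.

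The deposited table gives 1 log2 fold change (bantam sponge divided by scramble sponge), 1 mean log2 CPM (reads divided by library size in megareads, averaged over the libraries) and 1 unadjusted exact test p per gene, and no value per library. For genes with reads in few libraries, whole reads per library that give these 3 values could be searched for, because each read count leaves its own exact mean. Reads were recovered in this way for 2962 of the 9286 genes with reads. The effective library sizes solved from the table, in units of 1000000 reads (megareads), were 119, 43.8 and 8.18 in bantam sponge and 98.01, 43.6 and 5.31 in scramble sponge. They are called the deepest, middle and shallowest library of each genotype, since the replicate number behind each size is not known. Per the labels, 2 biological replicates were run on a NextSeq and 1 on a HiSeq, so instrument and depth cannot be told apart here. Of the 6 members with recovered reads, 5 were highest in the middle scramble sponge library and 1 in the shallowest. Of all 1142 recovered genes at a mean log2 CPM of 0 or more, 22% and 21.5% were highest there. A value of 0 in a library allows up to 0.0252, 0.0686 and 0.367 CPM in the deepest, middle and shallowest bantam sponge library, and up to 0.0306, 0.0689 and 0.565 CPM in the scramble sponge ones (3 reads per library). These limits cover counting error only, as the cDNA went through 25 PCR cycles without molecular identifiers.

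The sorted cells carried neuronal RNA in both genotypes. In the authors' deposited table all 6 neuron markers (elav, nSyb, brp, Syt1, fne and Rbp9) had reads in both genotypes, 3 with folds above 0 and 3 below. VGlut, the vesicular glutamate transporter, had a log2 fold change of −0.20 (95% limits −3.07 to 2.68) at a mean log2 CPM of 10.70 in the authors' deposited table. The synaptobrevin gene nSyb had a log2 fold change of 0.30 (95% limits −2.54 to 3.14) there. Intervals were made from the deposited fold and p.

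No gene of the whole table passed an adjusted p of 0.05 in the authors' exact test (edgeR, Benjamini-Hochberg over all rows, 0%), and 0.467 was the lowest adjusted p. At an unadjusted exact test p under 0.05, 1 of the 9 members with reads, PPO1, was lower in bantam sponge, against 3.12% of the genes with reads. No member was higher at that threshold, against 1.06% of the genes with reads. Since these folds chose the members, nothing is read from this count. Of the 9 members with reads 8 had a log2 fold change below 0, against 53.5% of the genes with reads. Their median log2 fold change was −5.09 (n = 9), beside −0.13 for all genes with reads in the authors' deposited table. This median is the fold of NimC1 (exact test p = 0.358), whose scramble sponge reads all lie in the middle library. Setting the 3 members without a read in bantam sponge at their bounds could not move it, since these bounds lie below it.

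**Figure D1:**
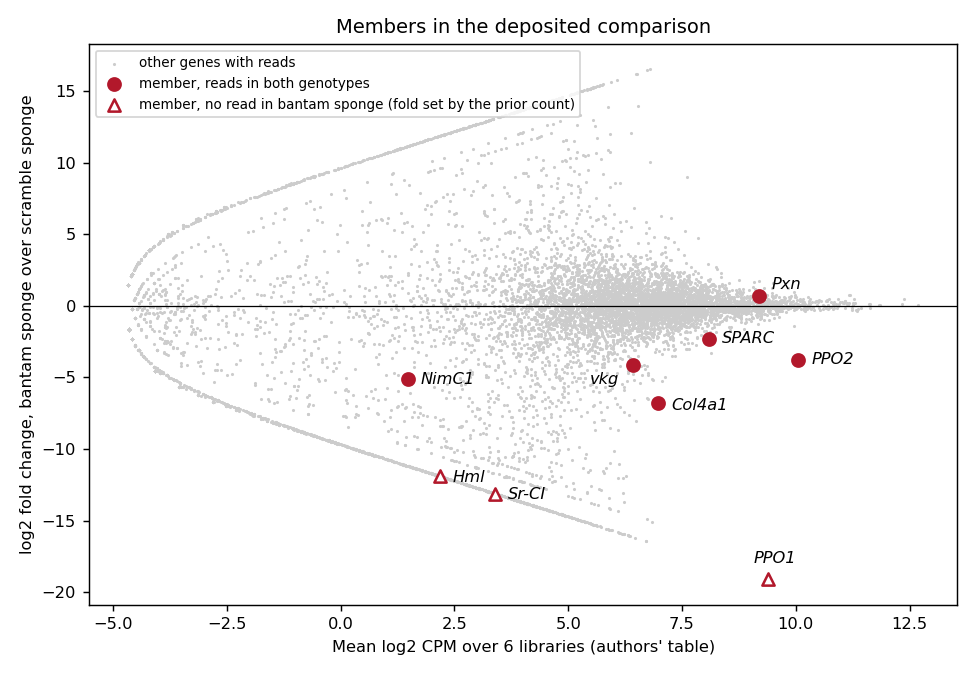
Log2 fold change (bantam sponge divided by scramble sponge, vertical) against mean log2 CPM over the 6 libraries (horizontal) for every gene with reads in the authors' deposited table (grey) and the 9 members with reads (red). Open triangles are members with no read in bantam sponge, whose plotted fold depends on the prior count. PPO1 lies far right of the lower edge of the grey cloud at a mean log2 CPM of 9.38, and Pxn is the member above 0.

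PPO1, a prophenoloxidase of crystal cells (FBgn0283437, dm6 2R, 17887220 to 17889973, minus strand), was read in 1 library. The recovered reads were 0, 0 and 0 in the deepest, middle and shallowest bantam sponge libraries and 0, 0 and 21263 in the scramble sponge ones. This is 4007 CPM in the shallowest scramble sponge library (exact Poisson interval 3954 to 4062 CPM, counting error only), and the other 5 libraries tie at 0. Among the 2962 genes with recovered reads PPO1 had the highest CPM in any library, and the next highest gene reached 910 CPM. This rank leaves out abundant genes read in most libraries, whose reads were not recovered. PPO1 was the 1 gene of the 394 whose mean log2 CPM was 9 or more that had no read in a genotype. It was chosen for being abundant and uneven, so this restates the choice. The exact test p of PPO1 was 0.000634 in the authors' deposited table, its Benjamini-Hochberg adjusted p was 1, and 4 genes had a smaller p. Averaged over the libraries, PPO1 had 0 CPM in bantam sponge and 1336 CPM in scramble sponge, at least 8703-fold lower in bantam sponge against a mean of 0.153 CPM over the limits of its 3 libraries (3 reads per library). Without the shallowest scramble sponge library, the mean CPM of PPO1 was 0 in bantam sponge and 0 in scramble sponge.

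PPO2, the prophenoloxidase that forms the crystals of crystal cells (FBgn0033367, dm6 2R, 9042261 to 9044709, minus strand), was read in both genotypes. The fold and mean in the authors' deposited table imply 142 CPM in bantam sponge and 1989 CPM in scramble sponge. The log2 fold change was −3.81 with 95% limits of −8.50 to 0.89 (p = 0.0988 in the exact test of the authors' deposited table), so the interval holds 0. No set of whole reads in 3 or fewer libraries that gives its deposited values was found, so its level per library is not given here. PPO3, the prophenoloxidase of lamellocytes (FBgn0261363, dm6 2R, 23064769 to 23067183, plus strand), had no read in any library. The limits of 3 reads per library given above hold for it. The other markers of these cells were also at 0, namely lz and peb, transcription factors of crystal cells, and atilla, a surface protein of lamellocytes. Of the 4 crystal cell markers 2 had no read, as had both lamellocyte markers and 45.7% of all rows.

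**Figure D2:**
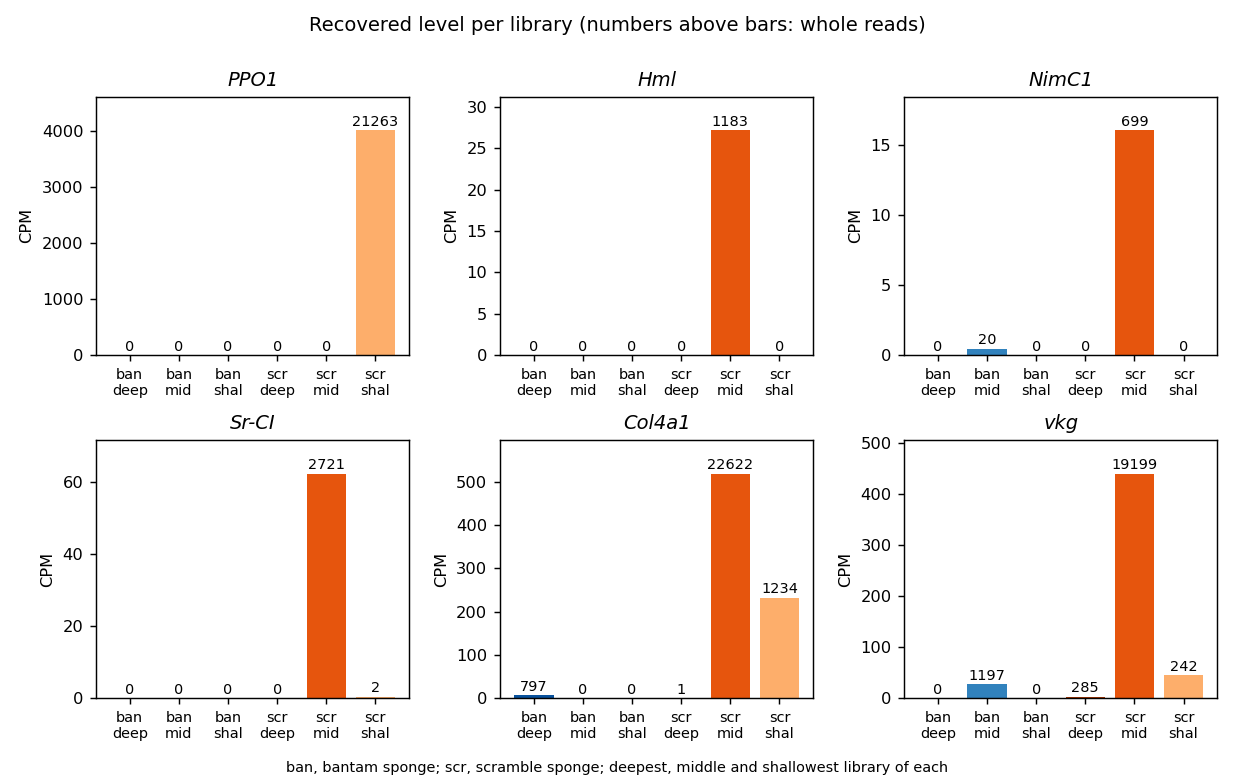
CPM per library of the 6 members whose whole reads were recovered, with bantam sponge libraries (blue) left of scramble sponge libraries (orange), each from deepest to shallowest, and the number of reads above each bar. PPO1 has its 21263 reads in the shallowest scramble sponge library, and the other 5 genes are highest in the middle scramble sponge library.

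The plasmatocyte members Hml, NimC1 and Sr-CI were highest in the middle scramble sponge library, PPO1 in the shallowest. Hml, hemolectin, a clotting protein and standard plasmatocyte marker (FBgn0029167, dm6 3L, 13846054 to 13860001, plus strand), had 0, 0 and 0 reads in the deepest, middle and shallowest bantam sponge libraries and 0, 1183 and 0 reads in the scramble sponge ones. Those reads are 27.2 CPM in the middle scramble sponge library (exact Poisson interval 25.6 to 28.7 CPM), with every other library at 0. NimC1, a phagocytosis receptor (FBgn0259896, dm6 2L, 13973158 to 13976769, minus strand), had 0, 20 and 0 reads in the bantam sponge libraries and 0, 699 and 0 reads in the scramble sponge libraries. The middle libraries thus held its reads in both genotypes, at 0.457 CPM in bantam sponge and 16.04 CPM in scramble sponge. Sr-CI, a scavenger receptor (FBgn0014033, dm6 2L, 4121702 to 4124153, plus strand), had 0, 0 and 0 reads in the bantam sponge libraries and 0, 2721 and 2 reads in the scramble sponge libraries. Its level was 62.4 CPM in the middle and 0.377 CPM in the shallowest scramble sponge library, the 2 reads there being below the limit of 3. The groups overlap at 0 for each of these genes.

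The means of these receptors and of hemolectin rest on the middle scramble sponge library. Hml averaged 0 CPM in bantam sponge and 9.05 CPM in scramble sponge, and 0 CPM in both without that library. Sr-CI averaged 0 CPM in bantam sponge and 20.9 CPM in scramble sponge, and without that library 0 CPM in bantam sponge and 0.188 CPM in scramble sponge. NimC1 averaged 0.152 CPM in bantam sponge and 5.35 CPM in scramble sponge, and without that library 0.152 CPM in bantam sponge and 0 CPM in scramble sponge, so its direction turned. The authors' deposited table gives exact test p-values of 0.115 for Hml, 0.358 for NimC1 and 0.0680 for Sr-CI. In bulk libraries fewer blood cells and less RNA per blood cell cannot be told apart.

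Pxn, peroxidasin, an enzyme of hemocytes that crosslinks collagen IV (FBgn0011828, dm6 3L, 2601455 to 2630064, minus strand), was the member with a fold above 0. The values in the authors' deposited table imply 728 CPM in bantam sponge and 444 CPM in scramble sponge. Its log2 fold change was 0.72 with 95% limits of −2.47 to 3.91 (p = 0.636 in the exact test of the authors' deposited table). Exons of Pxn overlap lncRNA:CR45660 on the same strand and CG16986 on the opposite strand, and no source used here says whether the counting used strand, so its reads may be split with these genes. No exon of another gene overlaps those of the other 9 members.

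The collagen IV chains Col4a1 and vkg are encoded next to each other on 2L (dm6), Col4a1 (FBgn0000299) from 5029609 to 5037279 on the plus strand and vkg (FBgn0016075) from 5012144 to 5028191 on the minus strand, 1417 bases apart. Col4a1 had 797, 0 and 0 reads in the deepest, middle and shallowest bantam sponge libraries and 1, 22622 and 1234 reads in the scramble sponge ones. In CPM this was 6.69, 0 and 0 in bantam sponge and 0.0102, 519 and 233 in scramble sponge. The genotypes overlap, since the deepest scramble sponge library with 1 read was below the deepest bantam sponge library. For vkg the reads were 0, 1197 and 0 in bantam sponge and 285, 19199 and 242 in scramble sponge. In CPM this was 0, 27.4 and 0 in bantam sponge and 2.91, 441 and 45.6 in scramble sponge. The genotypes overlap here too, because the middle bantam sponge library exceeded the deepest scramble sponge library.

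The products of these genes form 1 trimeric molecule, and the pair were highest together in the middle scramble sponge library, at 84.2 CPM per kilobase of exon for Col4a1 and 67.8 for vkg. In the shallowest scramble sponge library the levels were 37.7 CPM per kilobase for Col4a1 and 7.01 for vkg. In bantam sponge the reads of Col4a1 lay in the deepest library and those of vkg in the middle library, so no bantam sponge library held reads of both chains. Col4a1 averaged 2.23 CPM in bantam sponge and 251 CPM in scramble sponge, with a log2 fold change of −6.80 and 95% limits of −14.14 to 0.53 (p = 0.0637 in the exact test of the authors' deposited table). For vkg the averages were 9.12 CPM in bantam sponge and 163 CPM in scramble sponge, with a log2 fold change of −4.16 and 95% limits of −11.79 to 3.47 (p = 0.223 in the exact test of the authors' deposited table). Without the middle scramble sponge library, Col4a1 averaged 2.23 CPM in bantam sponge and 116 CPM in scramble sponge, and vkg 9.12 CPM in bantam sponge and 24.3 CPM in scramble sponge.

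SPARC, a collagen-binding glycoprotein of basement membranes (FBgn0026562, dm6 3R, 26869238 to 26871995, minus strand), was read in both genotypes at an implied 91.0 CPM in bantam sponge and 453 CPM in scramble sponge. Its log2 fold change was −2.32 with 95% limits of −6.14 to 1.501 (p = 0.207 in the exact test of the authors' deposited table). As for PPO2 and Pxn, no solution with reads in 3 or fewer libraries was found. Per kilobase of exon, the order of the members differed between the genotypes. In bantam sponge Pxn was highest at 122 CPM per kilobase, before SPARC at 75.7, PPO2 at 62.3, vkg at 1.402, Col4a1 at 0.362 and NimC1 at 0.0463, with PPO1, Sr-CI, Hml and PPO3 at 0. In scramble sponge PPO2 was highest at 873 CPM per kilobase, before PPO1 at 571, SPARC at 378, Pxn at 74.5, Col4a1 at 40.6, vkg at 25.1, Sr-CI at 9.51, NimC1 at 1.62 and Hml at 0.770, with PPO3 at 0. In bantam sponge each of the 6 members with recovered reads had at least 2 libraries at 0, so these members overlap over the libraries. In scramble sponge Col4a1 ranged from 0.00166 to 84.2 CPM per kilobase and vkg from 0.447 to 67.8. PPO1, Sr-CI, NimC1 and Hml each had a scramble sponge library at 0. Neighbours among the 6 thus overlap in scramble sponge too. The spread of PPO2, SPARC and Pxn over the libraries is not known.

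**Figure D3:**
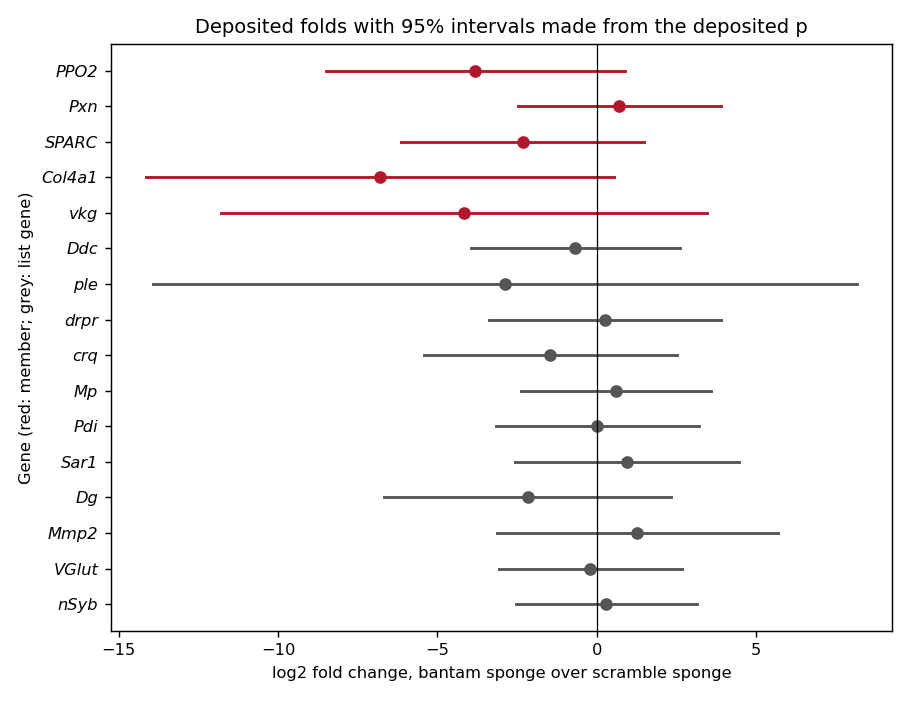
Log2 fold changes (bantam sponge divided by scramble sponge) in the authors' deposited table, with 95% intervals made from the deposited fold and p, for the 5 members with an interval (red) and for genes of the lists around them (grey). Each interval drawn holds 0, and among the 5 members that of Col4a1, from −14.14 to 0.53, ends closest to it.

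Of 11 genes of the melanization cascade, which acts around the prophenoloxidases, 7 had reads. All 7 had folds below 0, against 53.5% of the genes with reads. The folds of Spn28Dc and Spn77Ba rest on 5 reads and 1 read in all. Of the 7, 4 had no read in bantam sponge. Of all genes whose mean log2 CPM was 0 or more, 8.51% had reads in scramble sponge only and 4.5% in bantam sponge only; of those 4, Spn77Ba with 1 read lies below that mean. Sp7, a serine protease that activates prophenoloxidase, had 0 reads in every bantam sponge library and 0, 1137 and 0 reads in the scramble sponge libraries. For yellow-f, a dopachrome conversion enzyme, the reads were 0 in each bantam sponge library and 0, 2985 and 0 in the scramble sponge libraries. Spn27A, a serpin that restrains melanization, had 0 reads in bantam sponge and 0, 8061 and 71 reads in scramble sponge (p = 0.0247 in the exact test of the authors' deposited table), which is 185 and 13.4 CPM in the middle and shallowest scramble sponge libraries. Sp7, yellow-f and Spn27A were thus highest in the middle scramble sponge library, where PPO1 had no read. Ddc and ple, enzymes of dopamine synthesis that neurons also use, had log2 fold changes of −0.67 (95% limits −3.95 to 2.61) and −2.88 (95% limits −13.94 to 8.17) in the authors' deposited table. The proteases MP1, Hayan and psh, and yellow-f2, had no read.

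Of 25 other hemocyte genes 11 had reads, 3 with folds above 0 and 8 below. Among all genes with reads, 53.5% had folds below 0. None of the 11 had an unadjusted exact test p under 0.05 in the authors' deposited table. At that threshold 3.12% of the genes with reads were lower in bantam sponge and 1.06% higher. The members of this list with the highest means were drpr and crq, engulfment receptors, with log2 fold changes of 0.26 (95% limits −3.37 to 3.89) and −1.45 (95% limits −5.43 to 2.52) in the authors' deposited table; glia also use drpr. The following genes are named for their recovered reads, after their values were seen. NimB2 and NimB4, secreted relatives of NimC1, and the scavenger receptor gene Sr-CIII had no read in bantam sponge and 823, 4328 and 1225 reads in the middle scramble sponge library, with 0 in the others. The GATA factor of hemocytes and fat body, srp, had 0 reads in bantam sponge and 0, 29 and 145 reads in scramble sponge, so 27.3 CPM lay in the shallowest scramble sponge library beside PPO1. Pvr, a growth factor receptor of hemocytes, had its 475 reads in that same library. In the other direction, ush, a cofactor of srp, and pes, a scavenger receptor, had 2365 and 311 reads in the deepest bantam sponge library and 0 reads elsewhere. The hemocyte surface genes eater and He had no read.

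Over the 8 plasmatocyte markers (Hml, NimC1, Sr-CI, Pxn, eater, He, crq and srp), 6 had reads, and reads per library were recovered for Hml, NimC1, Sr-CI and srp. The most abundant markers, Pxn and crq, are not in the sums that follow. Over the genotypes, the authors' deposited table implies 728 CPM in bantam sponge and 444 CPM in scramble sponge for Pxn, the marker with a fold above 0. For crq it implies 93.3 CPM in bantam sponge and 255 CPM in scramble sponge. The summed level of the 4 recovered markers ranged from 0 to 0.457 CPM over the bantam sponge libraries and from 0 to 106 CPM over the scramble sponge libraries. Among scramble sponge libraries the deepest, of 98.01 megareads, was at 0 for these 4. Of the 4, srp was highest in the shallowest scramble sponge library and the others in the middle one.

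**Figure D4:**
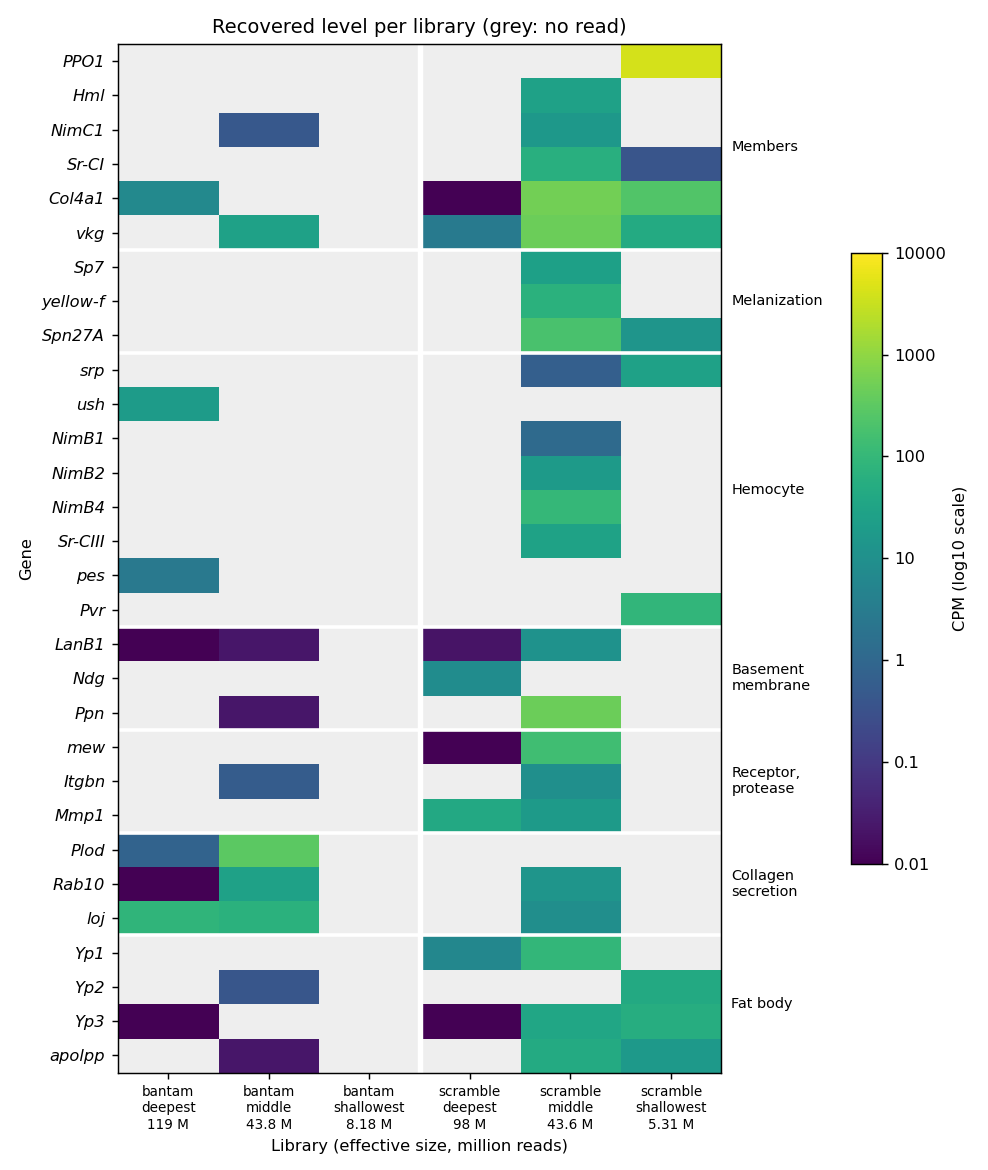
CPM per library (colour on a log10 scale, grey for no read), with bantam sponge libraries left of scramble sponge libraries. Rows are the members, and genes of the pathway and fat body lists, with at least 10 recovered reads. Glial and ribosomal protein genes are not drawn. Most rows have their brightest cell in the middle scramble sponge library at 43.6 megareads. PPO1, srp, Pvr, Yp2 and Yp3 have it in the shallowest scramble sponge library, and Ndg and Mmp1 in the deepest. Rows brightest in a bantam sponge library are ush, pes, Plod, Rab10 and loj.

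Among 10 other basement membrane genes 8 had reads, 2 with folds above 0 and 6 below, where 53.5% of all genes with reads were below 0. Ppn, papilin, a proteoglycan-like protein of basement membranes, had 0, 1 and 0 reads in the deepest, middle and shallowest bantam sponge libraries and 0, 19460 and 0 reads in the scramble sponge ones (p = 0.0138 in the exact test of the authors' deposited table). That is 447 CPM in the middle scramble sponge library. LanB1, a laminin chain, had 1, 1 and 0 reads in bantam sponge and 2, 491 and 0 reads in scramble sponge. The remaining laminin chains were nearly absent, with 0, 1 and 0 reads of LanB2 in bantam sponge and 0, 1 and 0 in scramble sponge, and 1 read each of LanA and wb in all. Ndg, nidogen, had its 799 reads in the deepest scramble sponge library. Mp, a multiplexin collagen, had a log2 fold change of 0.61 (95% limits −2.37 to 3.59) in the authors' deposited table. The other gene with a fold above 0, trol, had a log2 fold change of 2.59 (95% limits −9.03 to 14.21) there. Its implied level was 91.7 CPM in bantam sponge and 15.2 CPM in scramble sponge.

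Of 11 receptors and remodelling enzymes 7 had reads, 2 with folds above 0 and 5 below. Among all genes with reads, 53.5% had folds below 0. The integrin α gene mew had 0 reads in bantam sponge and 1, 6325 and 0 reads in scramble sponge (p = 0.0414 in the exact test of the authors' deposited table). The metalloprotease gene Mmp1 had 0 reads in bantam sponge and 4160, 815 and 0 reads in scramble sponge (p = 0.0391 in the exact test of the authors' deposited table). Dg, dystroglycan, and Mmp2 had log2 fold changes of −2.17 (95% limits −6.69 to 2.35) and 1.27 (95% limits −3.14 to 5.69) in the authors' deposited table.

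Of 7 genes that fold and export collagen IV all had reads, 5 with folds above 0 and 2 below, and 1 of the 7, Plod, had an unadjusted exact test p under 0.05 in the authors' deposited table. Plod, the collagen lysyl hydroxylase, had 97, 13290 and 0 reads in bantam sponge and 0 in every scramble sponge library (p = 0.0120 in the exact test of the authors' deposited table), at 304 CPM in the middle bantam sponge library. The middle bantam sponge library was also the one with reads of vkg. Rab10, which directs basement membrane secretion, had 1, 1178 and 0 reads in bantam sponge and 0, 597 and 0 in scramble sponge. For loj, a cargo receptor of the secretory pathway, the reads were 9928, 2998 and 0 in bantam sponge and 0, 411 and 0 in scramble sponge. Pdi, a disulfide isomerase, and Sar1, a GTPase of vesicle coats, had log2 fold changes of 0.03 (95% limits −3.17 to 3.22) and 0.95 (95% limits −2.55 to 4.46) in the authors' deposited table. The genes with folds below 0 were PH4alphaEFB, a collagen prolyl hydroxylase, and Tango1, which exports collagen from the endoplasmic reticulum. Their log2 fold changes were −1.14 (95% limits −5.79 to 3.51) and −2.64 (95% limits −11.62 to 6.34) in the authors' deposited table.

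Reads were recovered for 24 members and pathway genes whose mean log2 CPM was 0 or more. Counted by library, 15 of these 24 (62.5%) were highest in the middle scramble sponge library, against 22% of all 1142 recovered genes at that mean. These sets were not searched alike. Members, and pathway genes below a mean log2 CPM of 7, were searched for reads in more libraries than most of the 1142. In the shallowest scramble sponge library 3 of the 24 were highest, against 21.5% of the 1142. None of the 24 was highest in the shallowest bantam sponge library. Among genes with recovered reads 264 reached 100 CPM in a library. Of these 264, 95 were highest in the middle scramble sponge library and 14, PPO1 among them, in the shallowest. Abundant genes without recovered reads are not in this count. These shares describe the libraries and carry no test, since genes of a library are not replicates.

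**Figure D5:**
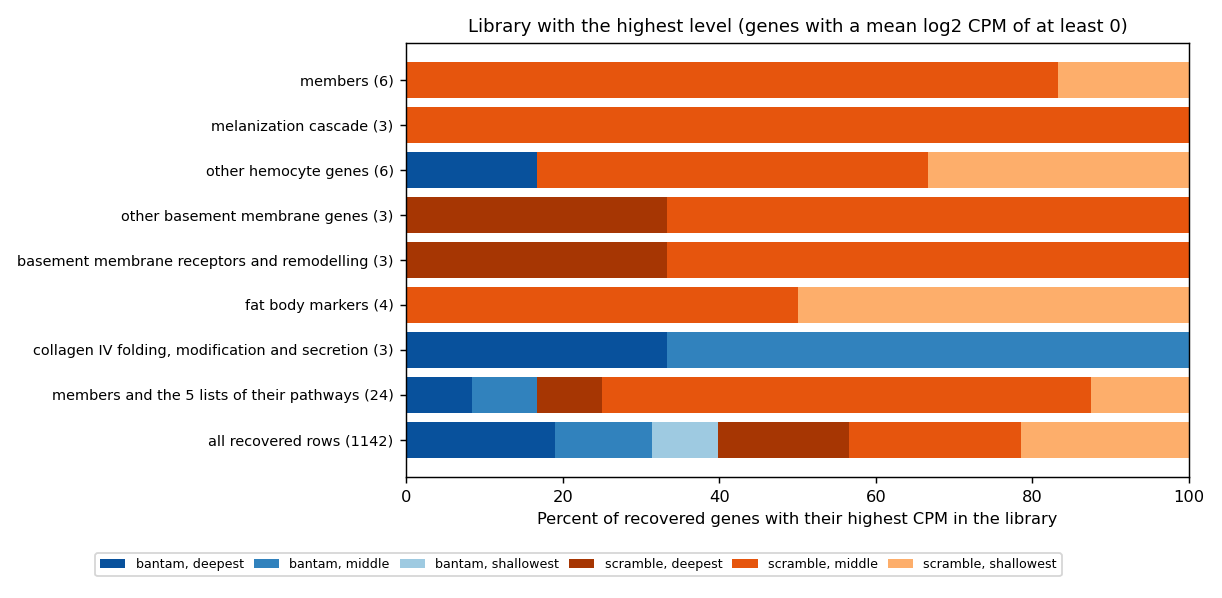
Percent of genes whose reads were recovered and whose mean log2 CPM was 0 or more that have their highest CPM in each library, by gene list, with the number of genes in parentheses and bantam sponge colours (blue) left of scramble sponge colours (orange). The middle scramble sponge library takes 62.5% of the members and pathway genes together and 22% of all recovered genes. Most of the latter were searched for reads in fewer libraries.

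Of the 5 fat body markers with recovered reads 4 were highest in the middle or shallowest scramble sponge library. Of the 7 fat body markers (Yp1, Yp2, Yp3, apolpp, Lsp2, Fbp1 and Fbp2) 5 had reads, Fbp1 and Fbp2 being at 0. Their summed level ranged from 0 to 0.434 CPM over the bantam sponge libraries and from 6.15 to 175 CPM over the scramble sponge libraries. Yp1, a yolk protein gene, had 0 reads in bantam sponge and 602, 4021 and 0 reads in scramble sponge (p = 0.0335 in the exact test of the authors' deposited table). Yp3 had 1, 0 and 0 reads in bantam sponge and 1, 1529 and 297 reads in scramble sponge (p = 0.0271 in the exact test of the authors' deposited table). Collagen IV and srp are made in fat body as well as in hemocytes, and the part of fat body RNA in their levels was not tested. FASN1, a fatty acid synthase, had a log2 fold change of 1.25 (95% limits −2.85 to 5.35) in the authors' deposited table. Among glial genes, Gs2 and nrv2 had log2 fold changes of 1.23 (95% limits −1.70 to 4.16) and 1.10 (95% limits −2.33 to 4.52) there, and 5 of 8 glial markers with reads had folds above 0. Of the 4 defining glial markers (repo, moody, alrm and wrapper) 2 had folds above 0 and 2 below. The glial transcription factor gene repo, named after its values were seen, had an implied 0.983 CPM in bantam sponge and 102 CPM in scramble sponge, with a log2 fold change of −6.70 and 95% limits of −13.50 to 0.10 (p = 0.0525 in the exact test of the authors' deposited table). The astrocyte gene alrm had a log2 fold change of 1.57 (95% limits −7.56 to 10.70) there. Of 85 cytosolic ribosomal protein genes with reads 29 had folds above 0 and 56 below, against 53.5% of all genes with reads below 0. The median log2 fold change of the 85 was −0.09 in the authors' deposited table. The most abundant, RpL4 and RpL8, had log2 fold changes of 0.45 and −0.06, and RpS5b had the only unadjusted exact test p under 0.05 of this list, 0.0438, with a fold above 0 in the authors' deposited table.

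The rows nearest to PPO1 in log2 fold change and mean log2 CPM, by Euclidean distance over these 2 values, were Drs, lectin-24Db and CG10467. None of these genes, nor PPO1, had a read in bantam sponge, so their folds, and this order, depend on the prior count. Drs, the antimicrobial peptide drosomycin, had 0 reads in bantam sponge and 0, 13540 and 1678 reads in scramble sponge, which is 311 and 316 CPM in the middle and shallowest libraries. For lectin-24Db, a C-type lectin, the reads were 0 in bantam sponge and 30, 27152 and 0 in scramble sponge. CG10467 was read, like PPO1, in the shallowest scramble sponge library alone, with 2808 reads or 529 CPM. Nearest to PPO2 were CG6766, PNUTS and Proc, at distances of 2.00, 2.31 and 2.38 log2 units. Proc, the precursor of the neuropeptide proctolin, had a log2 fold change of −1.43 in the authors' deposited table, with an implied 535 CPM in bantam sponge and 1447 CPM in scramble sponge.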

How the data were processed

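Messenger RNA of sorted neurons was measured in 3 bantam sponge and 3 scramble sponge libraries. Per the series design, poly(A) RNA was reverse transcribed, copied in 25 PCR cycles (SMART-seq2, modified), and Nextera XT gave the libraries. Reads were aligned to dm6 with STAR, per the submitters' processing notes, which also name Picard, HTSeq and edgeR without versions; no source used here gives other settings. The authors deposited 1 table of an edgeR exact test with log2 fold changes, mean log2 CPM and p-values, per the file headers.

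From this table, 6 effective library sizes (5.31 to 119 megareads, any normalization factor included) and a common dispersion of 4.50 were solved from genes with 1 read, with prior counts of 2 for the mean and 0.125 for the fold. Whole reads were accepted for a gene where they gave its deposited mean and fold and, at a deposited p under 1, its p within a relative error of 1e-06. All genes were searched for reads in up to 2 libraries. Members were also searched in 3, as were list genes below a mean log2 CPM of 7, ribosomal protein genes left out. Below that mean, members and these list genes were searched in 4 too, except where too many combinations arose. Genes with several solutions were not accepted. Beyond a few reads, the search ended at the first number of libraries that gave a solution, and reads in more libraries were not looked for. The recovery was tested on simulated data. In the 858 recovered genes with a deposited p of 1 the p gave no check. Abundant genes read in most libraries were not recovered, so recovered genes are not a sample of all genes. The fold of a gene without reads in 1 genotype is set by the prior count and is not printed, but it enters counts by direction, medians over genes with reads and the choice of the rows nearest to PPO1. Intervals of 95% use the dispersion that links the deposited fold and p, and they hold no value per library.

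Benjamini-Hochberg adjustment ran over all 17117 rows with a threshold of 0.05, two-sided. The samples' labels call them biological replicates. Members and lists were chosen with earlier results of these data known. The text names all members, the 2 most abundant rows and every row with an unadjusted p under 0.05 of each list, and the 3 rows nearest to PPO1 and to PPO2. List genes outside this rule are named for their recovered reads, their folds or having no read, after their values were seen. Coordinates, exon lengths and overlaps come from Ensembl release 115 on the dm6 assembly, in which all 10 members were found. Scripts used Python 3.11.15, numpy 2.4.6, scipy 1.17.1 and pandas 2.3.3. Alternatives were other adjustments, filters, scalings, prior counts and intervals.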

Additional observations from a re-analysis of the deposited data

How the results depend on the processing

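No gene and no member passed an adjusted p of 0.05 in the authors' exact test under any adjustment tried (Benjamini-Hochberg over all rows, over rows with reads or over rows at a mean log2 CPM of 3 or more, and Holm); at an unadjusted p, 388 genes were under 0.05 and 60 under 0.01, with PPO1 the member under both. The median log2 fold change of the members was −5.09 and stayed between −5.09 and −3.98 under the scalings and filters. The folds of the 6 members read in both genotypes kept their sign under scaling. Intervals were made for 5 of them, and all 5 held 0 under either construction. NimC1 has no interval, since its mean log2 CPM of 1.48 lies below the minimum of 3 used for intervals. Inferred scramble sponge levels scale with the assumed prior count: at a prior count of 0.5 they were 5343 CPM for PPO1, 36.2 CPM for Hml and 83.8 CPM for Sr-CI, in place of 1336, 9.06 and 20.9 CPM. The recovered reads, an alternative added after seeing the data, gave 1336, 9.05 and 20.9 CPM.

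Leaving out 1 library at a time, also added after seeing the data and computed on recovered reads, gave a mean difference (bantam sponge minus scramble sponge) of −2004 to 0 CPM for PPO1, −13.6 to 0 CPM for Hml, −7.87 to 0.152 CPM for NimC1, −31.4 to −0.188 CPM for Sr-CI, −374 to −114 CPM for Col4a1 and −234 to −15.1 CPM for vkg. The value nearest 0 came without the shallowest scramble sponge library for PPO1 and without the middle scramble sponge library for the other 5; NimC1 reversed there, and the cause is that its scramble sponge reads lie in that library. No paired analysis was possible because the replicate number of each recovered library is not known and the deposited table holds 1 value per gene. Depth limits the shallowest libraries most, where 3 reads are 0.367 CPM in bantam sponge and 0.565 CPM in scramble sponge.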
